A study of Saccharomyces cerevisiae with 10 samples.

Results

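The proteasome of budding yeast, Saccharomyces cerevisiae, was followed through its mRNAs during a change of growth form. The genes were chosen by name. Open reading frames whose standard symbol is PRE with a number, PUP1 to PUP3, SCL1, RPN with a number or RPT1 to RPT6 were taken, which gave 34 of the 6292 open reading frames in the deposited table. Of these, 14 encode the core particle, 10 the base and 8 the lid of the regulatory particle. The remaining pair is RPN4, a transcription factor, and RPN14, an assembly chaperone, which fit the name rule but are not subunits.

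The tested cells were wild-type diploids in the filamentous form, sampled at each hour from 1 to 10 after a move from SHAD liquid, which has ample glucose and ammonium, to SLAD agar, which is low in ammonium. The cells they were set against were in the yeast form. Each of the 10 two-colour arrays held both RNAs, and each hour had 1 array. The strain, the number of cultures behind the samples, and whether a single yeast-form RNA served every array are not given in the labels. The deposited value is a log2 ratio, written here as filamentous over yeast form. That direction is likely rather than stated. It rests on filamentous-form RNA being listed as the first channel and on a list of 8 genes known from filaments and low nitrogen. Of that list 5 were higher and 0 lower, against 22.6% and 22.4% of all genes tested. Since the list was used to set the direction, it is no independent evidence of it.

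The proteasome degrades proteins that carry a chain of ubiquitin. Its core is a barrel of stacked rings, outer alpha rings that gate the entry and inner beta rings that hold the catalytic sites. The regulatory particle sits on the barrel's ends. Its base contains a ring of ATPases that unfold substrates and thread them into the core, together with scaffold proteins and ubiquitin receptors, and its lid removes the ubiquitin chain. In budding yeast the genes of the subunits share an activator, Rpn4, which binds a short promoter element common to most of them. Rpn4 is itself a short-lived substrate of the proteasome, so that it accumulates when proteasome capacity is short and is removed when capacity is restored. Protein turnover of this kind also sets the levels of cyclins and of many nutrient-regulated enzymes and permeases.

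All 34 genes had at least 8 of 10 values and were tested, 33 of them with all 10, and PRE4 lacked a value at hour 10. Usable values per array over the whole table numbered 5802 to 6063, and spot intensities were not used here, so the signal behind each ratio is unknown and the number of arrays limits the precision. Arrays were deposited with medians of 0.12 to 0.39 (mean 0.30) and were set to a median of 0, so that every ratio is relative to the median gene of its array. A fit with limma, with the mean over hours tested against 0 and p-values adjusted over 5775 genes, gave the calls, at an adjusted p under 0.05. No replicate cultures are described, so the p-values rest on how far 10 single arrays scattered around a fitted curve, which may be technical. A yeast-form RNA shared by the arrays, or an effect of the dyes, would enter every hour alike, and neither was tested. The same sign on every array, or a call held in every alternative, is therefore not replication. Lists of mating and haploid genes (3 of 13 tested higher, 4 lower) and of meiosis and sporulation genes (0 of 11 higher, 1 lower) stood for other cell types. Of all genes tested 22.6% were higher and 22.4% lower. Ratios give no absolute level to judge whether the listed genes were expressed. In such samples a change in the number of cells of a kind and a change in RNA per cell cannot be told apart.

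Across the hours as a whole, 15 of the 34 genes were higher in filamentous-form cells (44.1%, against 22.6% of all genes tested) and 3 were lower (8.82%, against 22.4%). The 3 lid subunits RPN8, RPN12 and RPN7 were more than 2-fold higher, and RPN4 was higher still, at 1.38 ± 0.69 (SD over hours, n = 10), a 2.61-fold difference. SCL1, the first alpha subunit of the core, was lower, at -1.74 ± 0.54, a 3.35-fold difference. The other lower genes were the ATPase RPT3 and the beta subunit PRE4. The median of the 34 means was 0.31, beside 0.08 for all genes tested. On 8 genes the call came with a ratio above 0 on every array (23.5%, against 9.73% of all genes), and on 1, SCL1, with a ratio below 0 on every array (2.94%, against 14.3%). With the arrays left as deposited, 23 of the 34 were higher (38.8% of all genes) and 1, SCL1, was lower (15.3% of all genes), and the members' median was 0.61 beside 0.37 for all genes tested. With odd hours alone 5 of the 34 were higher, a share close to that of all genes (14.3%).

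**Figure D1:**
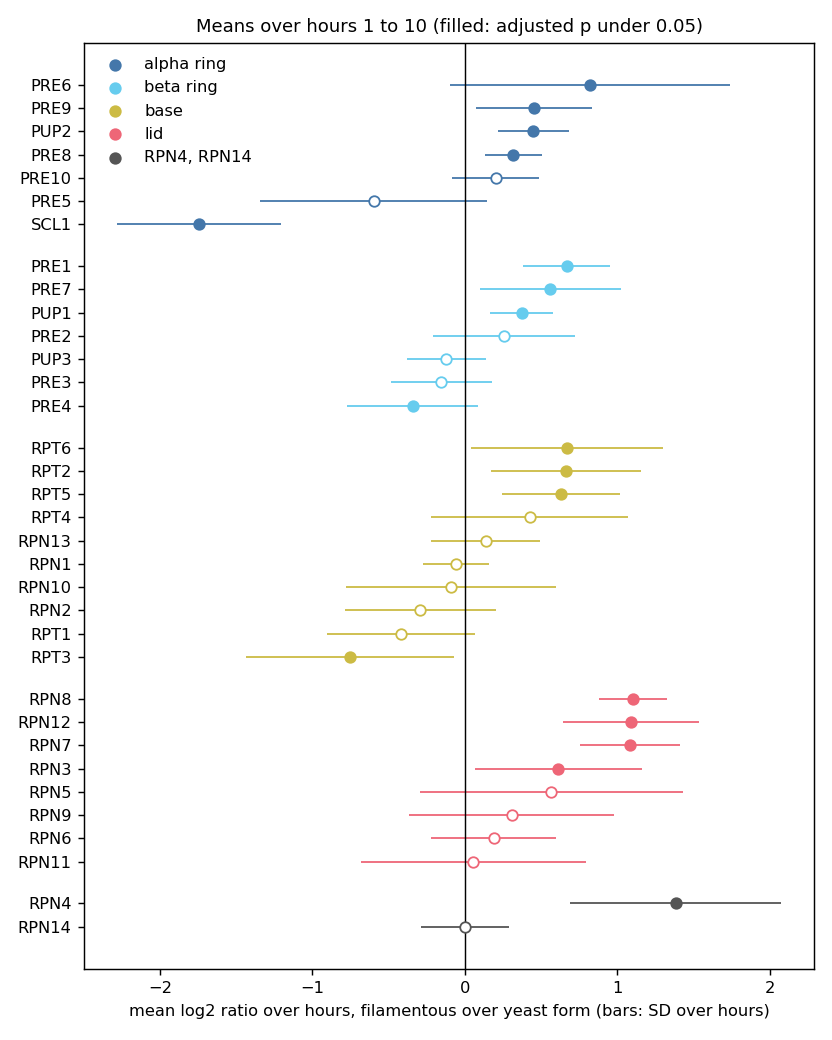
Mean log2 ratio over hours 1 to 10 (x axis, filamentous over yeast form, array median at 0) for each of the 34 genes (y axis), grouped by position in the complex; points are means, bars are the SD over hours, and filled points passed an adjusted p of 0.05 in limma. Means run from -1.74 for SCL1 to 1.38 for RPN4, and all 8 lid subunits have means above 0.

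The lid was the most uniform of the 3 assemblies in direction. All 8 of its subunits that fit the name rule had a mean above 0, on the deposited scale too. In the test 4 passed as higher (50%) and 0 as lower, against 22.6% and 22.4% of all genes tested. RPN8, the partner of the deubiquitinase Rpn11, had log2 ratios at hours 1 to 10 of 1.08, 1.60, 1.23, 1.10, 0.93, 1.16, 0.90, 0.87, 0.93 and 1.24. It lay well above 0 at each hour and varied little, with a mean of 1.10 ± 0.22 (SD over hours, n = 10, limma adjusted p = 1.5e-05). RPN7, a scaffold subunit of the lid, followed with 1.45, 1.66, 1.41, 0.95, 0.82, 0.61, 1.06, 0.93, 0.84 and 1.11. Its highest ratios were those of the first 3 hours, and its mean was 1.08 ± 0.33 (adjusted p = 1.6e-05). For RPN12, the last subunit to join the lid, the ratios were 1.63, 0.22, 1.61, 1.14, 0.67, 1.12, 0.76, 1.20, 1.08 and 1.49. Hour 2 was its low point and the others were at 0.67 or more, with a mean of 1.09 ± 0.45 (adjusted p = 2.4e-04). These 3 calls held in each of the 23 alternatives run, among them odd hours alone and even hours alone.

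RPN3, another scaffold subunit, was higher by 0.61 ± 0.55 (adjusted p = 0.0042), with its lowest value, -0.27, at hour 8 and its highest, 1.40, at hour 1. The call on RPN3 was lost with odd hours alone (adjusted p = 0.080) and with even hours alone (adjusted p = 0.094). RPN5, RPN9 and RPN6, scaffold subunits as well, had means of 0.57 ± 0.86, 0.31 ± 0.67 and 0.19 ± 0.41 and did not pass (adjusted p = 0.097, 0.28 and 0.28). RPN5 ranged from -0.32 at hour 2 to 2.21 at hour 5. RPN11, the deubiquitinase that cuts the chain from substrates, had the lowest mean of the lid, 0.06 ± 0.74 (adjusted p = 0.87), made of -0.57, 0.54, -0.18, 0.89, -0.93, 0.80, -0.58, 1.03, -0.72 and 0.29 at hours 1 to 10. Its ratio was below 0 at each odd hour and above 0 at each even hour, and its mean turned to between -0.03 and -0.05 when hour 4, 6 or 8 was left out. SEM1, a small lid protein outside the name rule, averaged 0.37 ± 0.66 and missed the threshold (adjusted p = 0.19).

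**Figure D2:**
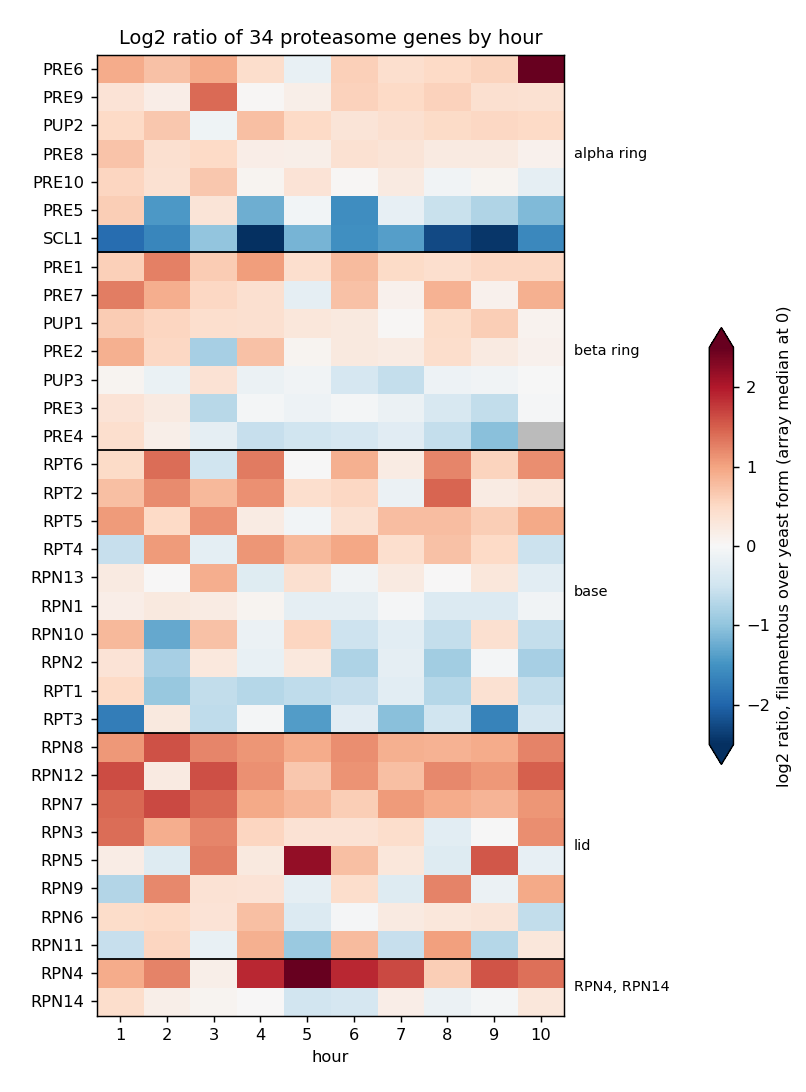
Log2 ratio of each of the 34 genes (rows, ordered by position in the complex and by mean) at each hour (columns), filamentous over yeast form, with the array median at 0; red is higher and blue lower in the filamentous form, colours saturate at 2.5, and grey marks the missing value of PRE4 at hour 10. SCL1 is blue at all 10 hours, while RPN8, RPN12 and RPN7 are red at all 10.

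In the alpha ring 4 of 7 subunits were higher (57.1%) and 1 was lower (14.3%), against 22.6% and 22.4% of all genes tested. SCL1, the alpha1 subunit, stood far from its ring partners, with ratios of -1.90, -1.62, -0.98, -2.56, -1.16, -1.52, -1.37, -2.27, -2.44 and -1.61 at hours 1 to 10. No hour came near 0, and the call held in all 23 alternatives (adjusted p = 3.0e-05). By its mean SCL1 stood at the 2.9 percentile of all genes tested. The annotated neighbours of SCL1 were lower too. ERG4, of ergosterol synthesis, had a mean of -2.39 ± 0.59 and was below 0 on 10 of 10 arrays (adjusted p = 5.8e-06), and MPO1, on the other side, had -0.52 ± 0.41 and was below 0 on 8 of 10 (adjusted p = 0.0085). Their part in the ratio of SCL1 was not tested. ENO1, an enolase gene next to the alpha5 gene PUP2, was likewise at -2.34 ± 0.52, while PUP2 was higher. A neighbour called in the same direction was not particular to SCL1. GCD1 beside RPN8 was at 1.01 ± 0.53, HXK1 beside RPN12 at 0.74 ± 0.27 and YTH1 beside RPN7 at 0.70 ± 0.57, each called higher. The other neighbour of RPN12, RET2, was lower, at -1.10 ± 0.55, and GPN2, the other neighbour of RPN8, did not pass (-0.13 ± 1.28). All neighbours named here were picked after their values were seen, and the share of members with such a neighbour was not computed.

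PUP2, with 0.50, 0.67, -0.11, 0.75, 0.50, 0.32, 0.40, 0.47, 0.51 and 0.49, was steady at all hours but the third, and its mean was 0.45 ± 0.23 (adjusted p = 0.0073). PRE9, alpha3 and the one core subunit that yeast can live without, had ratios of 0.34, 0.17, 1.41, 0.03, 0.15, 0.57, 0.50, 0.57, 0.40 and 0.39. All were above 0 and hour 3 was more than double the next on the log2 scale, with a mean of 0.45 ± 0.38 (adjusted p = 0.026). PRE8, alpha2, had 0.71, 0.40, 0.50, 0.16, 0.14, 0.39, 0.32, 0.22, 0.22 and 0.12, a mean of 0.32 ± 0.19 (adjusted p = 0.018). The differences of PRE9 and PRE8 were small, 1.37-fold and 1.25-fold. The call on PRE9 was lost without hour 6 and without hour 8 (adjusted p = 0.055 and 0.054), and that on PRE8 without hour 1 (0.055) and with adjacent hours averaged (0.090). Both were also lost with odd hours alone (0.11 for PRE9 and 0.16 for PRE8) and with even hours alone (0.11 and 0.18).

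PRE6, alpha4, was the highest of the core by its mean, 0.82 ± 0.92 (adjusted p = 0.0057), but that mean rested in part on the last hour. Its ratios were 0.94, 0.73, 0.93, 0.45, -0.18, 0.59, 0.43, 0.50, 0.55 and 3.28, and without hour 10 the mean was 0.55 (adjusted p = 0.0066). PRE10, alpha7, had a mean of 0.20 ± 0.28 (adjusted p = 0.12). PRE5, alpha6, had a mean of -0.60 ± 0.75 (adjusted p = 0.056). It did not pass in 14 of the 23 alternatives and passed as lower in the others. Among those were leaving out hour 1 (adjusted p = 0.027) or hour 3 (0.039), and averaging adjacent hours (0.016).

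The beta ring had 3 of 7 subunits higher (42.9%) and 1 lower (14.3%), against 22.6% and 22.4% of all genes tested. Of its 3 catalytic subunits PUP1 alone passed. PUP1, beta2, which cuts after basic residues, was higher, with 0.63, 0.53, 0.42, 0.39, 0.29, 0.25, 0.04, 0.46, 0.62 and 0.09 at hours 1 to 10 and a mean of 0.37 ± 0.20 (adjusted p = 0.011). The call was lost with adjacent hours averaged (adjusted p = 0.052), odd hours alone (0.15) and even hours alone (0.094). PRE2, beta5, which cuts after hydrophobic residues, had 0.89, 0.51, -0.82, 0.73, 0.07, 0.24, 0.20, 0.44, 0.23 and 0.11. It was above 0 at 9 of 10 hours, its mean of 0.26 ± 0.47 did not pass (adjusted p = 0.22), and without hour 3 it did, at 0.38 (adjusted p = 0.017). PRE3, beta1, which cuts after acidic residues, had 0.34, 0.23, -0.69, -0.06, -0.14, -0.06, -0.14, -0.41, -0.61 and -0.02. Its ratio was above 0 in the first 2 hours and below 0 afterwards, and its mean of -0.15 ± 0.33 did not pass (adjusted p = 0.33) and was 0.14 on the deposited scale.

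Among the beta subunits without a catalytic site, PRE1, beta4, was the highest, with 0.59, 1.27, 0.63, 1.05, 0.42, 0.79, 0.49, 0.42, 0.52 and 0.52. No value was below 0.42, and the mean was 0.67 ± 0.28 (adjusted p = 8.1e-04), a 1.59-fold difference. PRE7, beta6, was higher as well, by 0.56 ± 0.46 (adjusted p = 0.0059), with its highest value, 1.29, at hour 1 and its lowest, -0.22, at hour 5. PUP3, beta3, averaged -0.12 ± 0.26 and missed the threshold (adjusted p = 0.40), and on the deposited scale its mean was 0.18. PRE4, beta7, had 0.43, 0.14, -0.23, -0.57, -0.49, -0.43, -0.28, -0.60 and -1.04 at hours 1 to 9, above 0 at the start and lowest at its last measured hour. The 9 values averaged -0.34 ± 0.43, and the fitted mean of -0.39 with an SE of 0.12 passed as lower (adjusted p = 0.030). The call was lost in 11 of the alternatives. These were leaving out hour 4, 5, 6, 8 or 9 (without hour 9 the mean was -0.23, with the highest adjusted p, 0.23), the deposited scale (adjusted p = 0.53), zeros kept (0.080), no terms in hour (0.10), odd hours alone (0.34), even hours alone (0.19) and adjacent hours averaged (0.14).

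Of the base's 6 ATPases 3 were higher and 1 was lower, and of its 4 other subunits none passed in either direction, with the smallest adjusted p, 0.17, for RPN2. Of all 10 base subunits 30% were higher and 10% lower, against 22.6% and 22.4% of all genes tested. The median of the ATPases minus that of the other base subunits was 0.39 ± 0.66 over hours, with means of -0.10 over odd and 0.88 over even hours, and was not tested. RPT6 had ratios of 0.48, 1.39, -0.49, 1.31, -0.00, 0.88, 0.21, 1.23, 0.56 and 1.17 at hours 1 to 10, higher at every even hour than at any odd one. Its mean of 0.67 ± 0.63 passed (adjusted p = 0.021), but not without hour 8 (adjusted p = 0.0505) or without hour 10 (adjusted p = 0.054). RPT2 and RPT5, whose tails help to open the core's gate, were higher by 0.66 ± 0.49 (adjusted p = 0.0070) and 0.63 ± 0.39 (adjusted p = 0.0022), each above 0 at 9 of 10 hours. RPT3, whose tail docks in the same way, was lower, with -1.73, 0.24, -0.64, -0.04, -1.41, -0.28, -1.04, -0.50, -1.67 and -0.43. It was below 0 at 9 of 10 hours, with the deepest values at hours 1, 9 and 5, and its mean was -0.75 ± 0.68 (adjusted p = 0.019). On the deposited scale RPT3 averaged -0.45 and lost the call (adjusted p = 0.12), as it did with even hours alone (-0.20, adjusted p = 0.36). The calls on RPT6, RPT2 and RPT5 were lost with odd hours alone (adjusted p = 0.63, 0.18 and 0.053) and held with even hours alone.

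RPT4 and RPT1 lay near the threshold on opposite sides of 0. RPT4 had a mean of 0.43 ± 0.65 (adjusted p = 0.058). It did not pass in 15 of the 23 alternatives and was called higher in the others, among them without hour 1, 3 or 10 (adjusted p = 0.035, 0.024 and 0.039). RPT1 had a mean of -0.42 ± 0.48 (adjusted p = 0.052). It did not pass in 14 of the 23 alternatives and was called lower in the others, among them without hour 1 or 9 (adjusted p = 0.014 and 0.023). The scaffolds RPN1 and RPN2 had means of -0.06 ± 0.22 and -0.29 ± 0.50, and on the deposited scale both were above 0, at 0.24 and 0.01. The ubiquitin receptors RPN10 and RPN13 had means of -0.09 ± 0.69 and 0.14 ± 0.36 (adjusted p = 0.77 and 0.44). RPN10 ranged from -1.29 at hour 2 to 0.82 at hour 1, and its mean was 0.04 without hour 2 and 0.21 on the deposited scale.

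RPN4, the activator of the subunit genes, was the highest of the 34. At hours 1 to 10 its ratios were 0.92, 1.25, 0.14, 1.88, 2.55, 1.88, 1.65, 0.62, 1.57 and 1.37 (adjusted p = 3.8e-04 for the mean). It was above 0 at all 10 hours, highest at hour 5, and the call held in all 23 alternatives, with means of 1.37 over odd and 1.40 over even hours. At hours 4, 5, 6, 7 and 9 none of the 32 subunits was above RPN4, while at hour 3, its lowest, 22 of them were. The difference between RPN4 and the median subunit ranged from -0.25 at hour 3 to 2.44 at hour 5. RPN14, a chaperone of base assembly, had a mean of 0.00 ± 0.29 (adjusted p = 0.99), with no hour beyond -0.48 or 0.44.

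Core, base and lid were set side by side by the median of their subunits on each array. The core's median was above 0 at 9 of 10 hours, with a mean of 0.25 ± 0.17 (SD over hours). The base's was above 0 at 6 of 10 hours, with a mean of 0.06 ± 0.25. The lid's was above 0 at all 10 hours, with a mean of 0.76 ± 0.25 and a range of 0.36 to 1.23. The core lay below the lid at 10 of 10 hours, by -0.52 ± 0.25, and the base lay below the lid at 10 of 10 hours, by -0.70 ± 0.37. The smallest gaps to the lid were -0.20 for the core, at hour 1, and -0.25 for the base, at hour 9. Core minus base was above 0 at 8 of 10 hours, with a mean of 0.19 ± 0.22, but it was -0.01 when means of subunits replaced medians, and 0.05 over odd and 0.32 over even hours. The base's own median averaged 0.20 over odd and -0.08 over even hours. The alpha and beta rings of the core differed by 0.01 ± 0.19 (alpha minus beta), with 6 hours above 0 and 4 below. These are descriptions of genes chosen with earlier results known, and no test was run on them. The subunits overlap widely, since RPN11 of the lid had a lower mean than 9 of the 14 core subunits. The share called higher was the same in both, 7 of 14 in the core and 4 of 8 in the lid (50% each, against 22.6% of all genes tested). RPN8, RPN12 and RPN7 had the highest means of the lid, and its median was not recomputed without them.

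**Figure D3:**
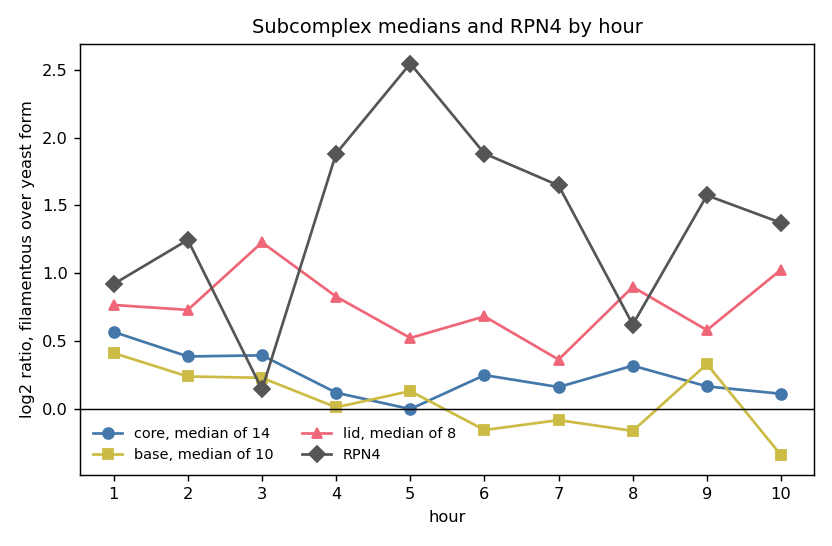
Median log2 ratio of the 14 core, 10 base and 8 lid subunits and the ratio of RPN4 (y axis, filamentous over yeast form, array median at 0) at each hour (x axis). The lid median lies above the core and base medians at all 10 hours, and RPN4 lies above all 3 at every hour except 3 and 8.

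No gene of the complex passed for a linear or a quadratic change over the hours, and neither did any gene in the table (0% of 5775 for each). At an unadjusted p under 0.05, 2 of the 34 genes had a linear and 2 a quadratic change, against 641 and 603 of all genes. The smallest adjusted p for a slope was 0.41, for PRE4, at -0.12 per hour. The fitted slope was below 0 for 24 of the 32 subunits, among them 7 of 7 in the beta ring, 8 of 10 in the base and 4 of 8 in the lid, beside 48.8% of all genes. The number of subunits above the array median ran from 27 of 32 at hour 1 to 17 of 32 at hour 5 and 17 of 31 at hour 10. Median slopes were small, at -0.03 per hour over the subunits and 0.00 over all genes.

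Several of the genes alternated between odd and even hours, a split that the labels do not name as a batch. When the fit included a term for odd against even hours, 3 of the 34 genes differed between them (8.82%, against 6.35% of all genes). Each of the 3 was lower at odd hours, while 251 of the 367 called among all genes were higher at odd hours. RPN11 averaged -0.60 over odd hours and 0.71 over even hours (adjusted p = 0.014), RPT3 -1.30 and -0.20 (adjusted p = 0.035), and RPT6 0.15 and 1.19 (adjusted p = 0.040). RPN9 had a like pattern, -0.21 and 0.83, and did not pass (adjusted p = 0.081). PRE5, RPN2, RPN10 and RPN5 had the opposite one, with odd and even means of -0.02 and -1.18, 0.12 and -0.70, 0.44 and -0.63, and 1.10 and 0.03, and none passed (adjusted p = 0.069, 0.074, 0.080 and 0.14). Fitted on odd hours only, 5 of the 34 genes were higher, a share close to the 14.3% of all genes in that fit, and 3 were lower (16.4% of all genes). The excess of higher genes over all hours was thus not seen in the odd hours alone. Fitted on even hours only, 12 were higher (20.4% of all genes) and 5 lower (23.4% of all genes). Of the 7 core subunits called higher over all hours, 0 passed with odd hours alone and 3 (PUP2, PRE1 and PRE7) with even hours alone, each split having only 5 arrays. The mean of the subunit median was 0.29 over odd and 0.31 over even hours.

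**Figure D4:**
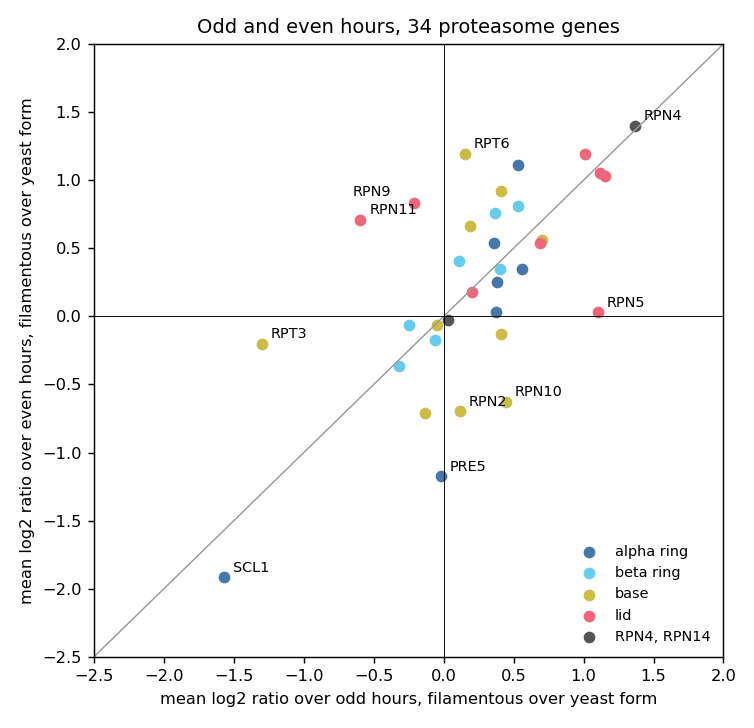
Mean log2 ratio over even hours (y axis) against that over odd hours (x axis) for the 34 genes, filamentous over yeast form, coloured by position in the complex, with the line of equal means; genes with means more than 0.7 apart, SCL1 and RPN4 are named. RPN11 and RPT6 lie above the line and PRE5, RPN10 and RPN5 below it, while RPN4 lies close to it.

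Genes that work around the proteasome were taken as 8 lists of 92 genes in all, of which 87 were tested. Of these 19 were higher (21.8%) and 18 lower (20.7%), close to the 22.6% and 22.4% of all genes tested, and their median was 0.13. The single lists are small, and their counts are to be read beside the same shares of all genes. With arrays left as deposited, 42 were higher (48.3%, against 38.8% of all genes) and 11 lower (12.6%, against 15.3%). Among chaperones of proteasome assembly 1 of 9 was higher and 2 were lower (median 0.13). UMP1, which guides maturation of the core, was at -0.77 ± 0.34 and below 0 at all 10 hours (adjusted p = 2.1e-04). ADD66, of alpha ring assembly, was lower by -0.52 ± 0.47 (adjusted p = 0.026), a call lost without hour 4, 6, 8 or 10, and IRC25, of the same process, higher by 0.57 ± 0.75 (adjusted p = 0.047), a call lost without hour 1, 2, 3, 4, 6, 8 or 9. Of 9 tested proteins that bind the proteasome or cap it, a list that also held SEM1 of the lid, 3 were higher and 1 was lower (median 0.48). The ubiquitin ligase HUL5 was at 0.89 ± 0.78, the adaptor ECM29 at 0.48 ± 0.44, CIC1, also known from ribosome assembly, at 0.64 ± 0.51, and SPG5, a regulator known from stationary phase, at -1.27 ± 0.25.

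Among 5 genes that encode or activate ubiquitin, 2 were higher and 2 lower. UBI4, the stress-induced polyubiquitin gene, was higher by 0.75 ± 0.50 and above 0 at all 10 hours (adjusted p = 1.9e-04). RPS31 and RPL40A, in which ubiquitin is fused to a ribosomal protein, were lower, at -1.27 ± 0.61 and -0.70 ± 0.33, each below 0 at all 10 hours, while RPL40B, whose protein is the same as that of RPL40A, had a mean of 0.21 ± 0.47 (adjusted p = 0.18). These genes share ubiquitin sequence, and an array can mix their signals. UBA1, the activating enzyme, was at 0.36 ± 0.42 (adjusted p = 0.018), a call lost without hour 1 or 2 (adjusted p = 0.060 and 0.072). The median of these 5 genes was 0.21.

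Among 11 tested conjugating enzymes 3 were higher and 3 lower (median -0.08, and 0.22 on the deposited scale). This count and those of the lists that follow stand beside 22.6% higher and 22.4% lower of all genes tested. UBC8, known for the breakdown of a gluconeogenic enzyme when glucose returns, was at 1.12 ± 0.29, while UBC13 and RAD6, of DNA damage tolerance, were at -2.12 ± 0.96 and -0.72 ± 0.53, and UBC5, which has a near-identical copy, at -0.65 ± 0.85. Ligases had 1 of 19 higher and 6 lower (median -0.28, and 0.01 on the deposited scale), with RKR1, of ribosome quality control, at 1.24 ± 0.65, the cullin CDC53 at -1.75 ± 0.51, TUL1 of the Golgi at -1.20 ± 0.46, and MET30, which acts in sulfur control, at -0.76 ± 0.25. Deubiquitinases had 5 of 17 higher and 2 lower (median 0.32), with UBP10 at 1.08 ± 0.42, UBP1 at 0.86 ± 0.77, YUH1 at 0.79 ± 0.47 and OTU2 at -0.99 ± 0.48. Shuttles and the Cdc48 complex, which bring substrates to the proteasome, had 2 of 13 higher and 2 lower (median 0.23). UBX5, a Cdc48 cofactor, was at 1.79 ± 1.17, UBX4 at 0.51 ± 0.40, UBX2 at -0.73 ± 0.59, and the shuttle RAD23 at -0.69 ± 0.26, below 0 at all 10 hours. Of 4 transcription factors known to act on RPN4 in yeast 2 were higher and 0 lower (median 0.53), YAP1 at 1.01 ± 0.59 and PDR3 at 0.40 ± 0.30 (adjusted p = 0.021, lost without hour 1 or 2), while HSF1 and PDR1 had means of 0.67 ± 0.79 (adjusted p = 0.054) and 0.25 ± 0.67 (adjusted p = 0.38).

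**Figure D5:**
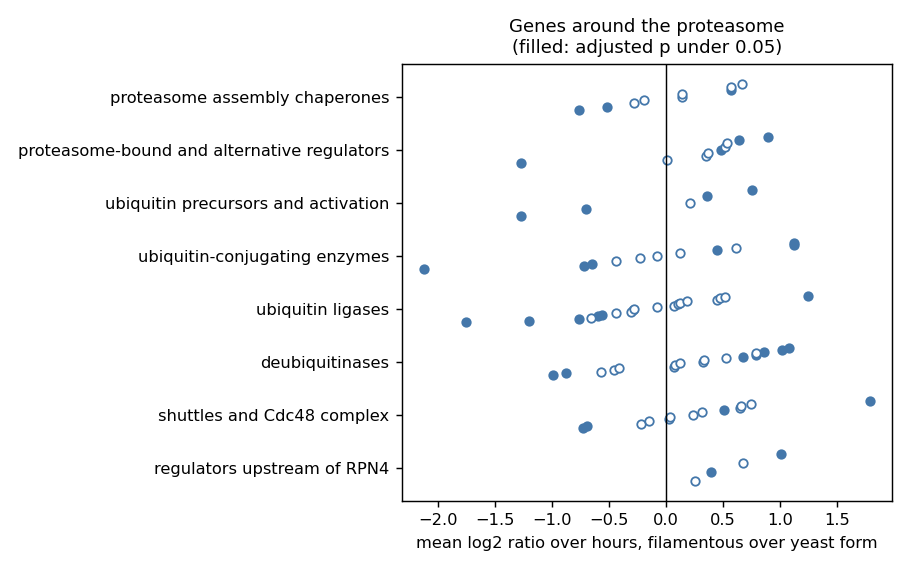
Mean log2 ratio over hours 1 to 10 (x axis, filamentous over yeast form, array median at 0) of each tested gene in 8 lists around the proteasome (rows); filled points passed an adjusted p of 0.05 in limma. Filled points lie on both sides of 0 in 7 of the 8 lists, and the regulators of RPN4 have 2 filled points, both above 0.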

How the data were processed

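Arrays with a pair of colour channels of total RNA were hybridised with filamentous-form and yeast-form targets together, per the labels. The values deposited by the authors are log2 ratios, 1 per open reading frame and array. Base 2 is inferred, since 2 to the power of the value was a whole number of ten-thousandths (tolerance 0.02) for 98.4% of values, against 4.60% for base e and 4.18% for base 10. The sources used here do not give the array design, dyes, background correction or any normalization. All 62920 values have 7 decimals ending in the digit 3, and the 3324 (5.28%) that are 0 apart from that digit were treated as missing.

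Names were matched to the R64 gene table for 5792 names, and 500 had no match. The median of each array was subtracted from its values. A gene needed 8 or more of its 10 values and was fitted with limma 3.58.1 in R 4.3.3 (lmFit, eBayes, linear and quadratic terms in hour), with Benjamini-Hochberg adjustment over 5775 genes and a threshold of 0.05. A mean ± SD is over hours. The scripts were tested on simulated data. Figures were drawn with matplotlib 3.10.9.

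The members and lists were chosen with earlier results of these data known. Values at every hour were given for RPN4, the catalytic subunits, the highest and lowest mean of each ring, base and lid, genes called with 1 sign on every array, and genes with an outlying hour. Up to 4 called genes with the smallest adjusted p were named per list. SEM1, RPL40B, HSF1, PDR1 and neighbouring genes were named after their values were seen. Alternatives changed the centring, zeros, normalization, filter, error model, time terms and arrays used. Leaving SCL1 out of the core was added after seeing the data.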

Additional observations from a re-analysis of the deposited data

Results flagged for a closer look

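Among the 34 genes, 5 had 1 hour far from their other 9, by Dixon's criterion at the 95% level. Chance meets it in about 1 in 20 groups of normally spread values. The share of all genes tested that meet it was not computed, so the count cannot be read as a trait of these 34 genes. PRE6 had a log2 ratio of 3.28 at hour 10, against -0.18 to 0.94 at the other hours. At hour 3, PRE9 had 1.41 (others 0.03 to 0.57), PUP2 had -0.11 (others 0.32 to 0.75) and PRE2 had -0.82 (others 0.07 to 0.89). RPN8 had 1.60 at hour 2, against 0.87 to 1.24, and without that hour its mean was 1.05 (limma adjusted p = 6.3e-05). Each gene's value rests on a single array per hour.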

How the results depend on the processing

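Of 781 member means under 23 alternatives, 682 kept their direction and side of the threshold, 36 lost the call, 41 gained one and 22 changed sign, none of these called in both settings. Several alternatives leave the mean of a fully measured gene unchanged by design, and leaving out 1 hour keeps all the other arrays. The number kept is therefore in part fixed in advance. Leaving the arrays as deposited gave 23 members higher and 1 lower, 1 core subunit lower, 5 base subunits higher and 0 lower, 7 lid subunits higher, and medians of 0.54 for the core, 0.36 for the base and 1.06 for the lid. Its means were 0.24 for RPN1, 0.21 for RPN10, 0.0060 for RPN2, 0.18 for PUP3 and 0.14 for PRE3. With zeros kept, 1 core subunit was lower and RPN1 had 0.011. Scaling of arrays to equal spread and array weights each gave 5 members lower and 2 base subunits lower, and weights gave RPN14 -0.00978. Quantile normalization, genes with all 10 values and the robust trended error model each gave 2 base subunits lower. Adding a term for odd against even hours, 6 members and 3 base subunits were lower. Odd hours alone gave 5 members, 0 core and 0 base subunits higher, 1 core and 1 lid subunit (RPN11) lower, and means of 0.44 for RPN10, 0.12 for RPN2, -0.21 for RPN9 and -0.60 for RPN11. Even hours alone gave 3 core subunits higher, 5 members and 3 base subunits lower, -0.13 for RPN13 and -0.028 for RPN14. Averaging adjacent hours gave 5 core subunits higher, without PRE8 and PUP1. Leaving out each hour in turn gave 13 to 17 members higher and 2 to 5 lower (2 without hour 4, 5, 6 or 8, and 5 without hour 1), 1 to 3 core subunits lower (1 without hour 4, 5, 6, 8 or 9) and 1 to 2 base subunits lower (2 without hour 1 or 9). It moved RPN10 between -0.19 and 0.042, RPN11 between -0.051 and 0.17, and RPN14 between -0.046 and 0.055. The cause was not tested. With each hour left out in turn, core minus base ranged from 0.15 to 0.23, core minus lid from -0.55 to -0.47 and base minus lid from -0.75 to -0.63. Over all alternatives these ranges were -0.01 to 0.32, -0.60 to -0.32 and -0.92 to -0.49. Averaging adjacent hours gave the smallest gap of core to lid, -0.32, and the lowest lid median, 0.61. No paired analysis was possible because the arrays form 1 group and each holds both samples of its ratio. Signal over background was not used here, and each hour has 1 array, so an effect at a single hour has no replicate check.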
